A study of Rattus norvegicus with 6 samples.

Results

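The transcriptome of control nucleus pulposus cells was described from 3 RNA sequencing libraries. These are the libraries titled shNC, 3 of the 6 in the series, and every one was used. Per the labels, the donors were male rats of the Sprague-Dawley strain, 4 weeks old, and nucleus pulposus tissue was taken from their lumbar discs. The extraction protocol, in contrast, speaks of adipose RNA, a wording that the labels leave unexplained. The tissue was digested in 0.025% collagenase II and the cells were grown in DMEM/F12 with 10% FBS. Cells at passages 3 to 5 received a lentivirus with a negative control hairpin for 72 hours, so that these controls carry a vector as well and are not untouched cells. The question put to the data was which genes and gene families such cultures express, in what order, with what share of the counts and how reproducibly.

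At the centre of each intervertebral disc lies the nucleus pulposus, a soft and water-rich tissue. It arises from the notochord, whose cells depend on the transcription factor brachyury (Tbxt), and its mature cells are chondrocyte-like and lay down aggrecan, which holds water, in a mesh of type II collagen. The surrounding annulus fibrosus is built mainly of type I collagen. The core has no blood vessels, and its cells live with little oxygen, rely on glycolysis and face high osmotic pressure.

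The total count was 47626000, 49783710 and 44043803 in control libraries 1, 2 and 3. A count of 3, used here as the limit of what a count of 0 allows, was 0.0630, 0.0603 and 0.0681 CPM (counts scaled to a fixed library size). All 3 pairs of libraries differed by more than counting noise, with a chi-square of 14.997 to 21.0 over its degrees of freedom, and Spearman's rho of log2 CPM over 12140 genes was 0.988 to 0.990, a correlation across genes that are not independent. Whether they came from separate animals or cultures is not stated in the labels, so the SDs given here are the spread between libraries, which may be technical. Levels of different genes are compared as FPKM (fragments per kilobase of transcript and library depth, as deposited), and the weight of a gene or family in a library as its share of all counts. A gene was taken as detected at 1 FPKM or more in all 3 libraries. The 3 highest members of each gene list are named by rule, and other members were named after their values were seen. Being bulk samples, the libraries cannot tell fewer cells of a type from less RNA per cell.

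Of 32623 genes listed, 11134 were detected, among them 10516 of 21940 protein-coding genes (47.9%), and 15810 genes had no count in any control library. Protein-coding genes took 98.5% ± 0.0227 of the counts. Counts were concentrated in few genes. The 10 most counted genes of each library held 23.1%, 22.1% and 21.7% of its counts (22.3% ± 0.727, SD, n = 3), and the 100 most counted held 41.2% ± 0.642. In libraries 1, 2 and 3, 229, 243 and 254 genes were enough to reach 50% of the counts, and 4118, 4160 and 4196 genes to reach 90%. Library 1 was the most concentrated at each of these marks. By level, 38 detected genes had a mean of 1000 FPKM or more and took 29.9% of the counts, whereas the 5773 detected genes below 10 FPKM took 8.22% together. The median over all protein-coding genes listed was 0.918 FPKM, and that over the detected ones 9.76 FPKM.

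Secreted matrix proteins headed the list. Col1a1, which encodes the α1 chain of type I collagen (ENSRNOG00000003897; chromosome 10, 82745801 to 82762789, forward strand), was the most counted gene in each library. It took 8.24%, 7.21% and 7.12% of the counts (7.52% ± 0.620, SD, n = 3). Library 1 stood above the other two, which lay close together. Fn1, encoding fibronectin (chromosome 9, 78900103 to 78969078, reverse strand), came next at 3.34% ± 0.148, and here library 1 was the lowest (3.17%, 3.46% and 3.38%). Sparc, whose product osteonectin binds collagen and calcium (chromosome 10, 40742400 to 40764185, reverse strand), took 2.25% ± 0.0298, and Thbs1, encoding the adhesive glycoprotein thrombospondin 1, 2.11% ± 0.0430. The 5 most counted genes stood in the same order in all 3 libraries, and the 20 most counted were the same 20 genes in each. The fifth is a row that the file describes as collagen type I alpha 2 chain without that symbol, and the sixth is another row with the same description. No source used here gives the genome build of these coordinates.

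**Figure D1:**
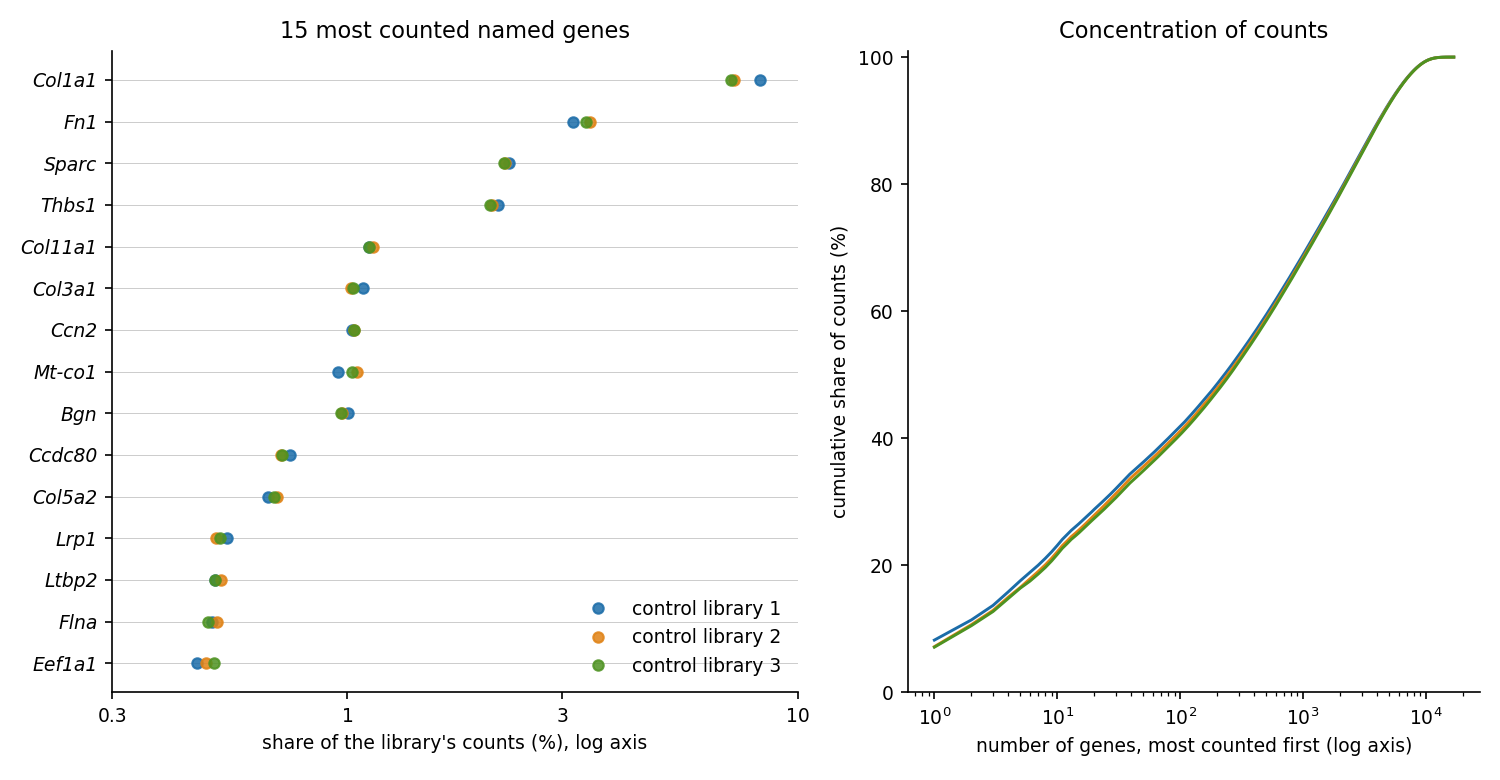
Left, share of the counts (percent, log axis) taken by the 15 most counted named genes, 1 point per control library; Col1a1 lies between 7.12% and 8.24%, and the 2 collagen type I alpha 2 rows are left out because they carry no symbol of their own. Right, cumulative share of counts (percent) against the number of genes, most counted first (log axis), 1 line per library; the lines run close together and reach 50% at 229 to 254 genes.

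The other most counted genes were also mainly of the matrix or of the secretory route. Col11a1 (type XI collagen, 1.12% ± 0.0145), Col3a1 (type III collagen, 1.04% ± 0.0344), Ccn2 (connective tissue growth factor, 1.03% ± 0.00480) and Bgn (biglycan, a small proteoglycan, 0.979% ± 0.0205) each took about as much as the mitochondrial gene Mt-co1 (1.010% ± 0.0499). Ccdc80 (0.725% ± 0.0195), Col5a2 (0.683% ± 0.0162), Ltbp2 (0.513% ± 0.00980), Serpinh1 (0.428% ± 0.00845) and Col5a1 (0.412% ± 0.0151) encode matrix proteins or their partners. Lrp1, a large endocytic receptor, took 0.524% ± 0.0140, the actin crosslinker Flna 0.501% ± 0.0126, the elongation factor Eef1a1 0.484% ± 0.0209, Mt-cyb 0.467% ± 0.0123 and cytoplasmic actin Actb 0.371% ± 0.0131. Genes annotated in the file to the extracellular matrix took 24.9% ± 0.622 of all counts, from 111 detected of 236 genes. Those annotated to the nucleus took 26.9% ± 0.191, from 3626 detected of 5181. The 111 detected matrix genes thus held nearly as large a share as the 3626 nuclear ones. A gene can carry both annotations.

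Per length, the order changed in its details. Col1a1 led with 13757, 12056 and 11897 FPKM (12570 ± 1031, SD, n = 3), followed by Sparc with 10771, 10593 and 10498 (10621 ± 138), with no overlap between them. Mt-co1, cytochrome oxidase subunit I, had 6362 ± 319 FPKM and Thbs1 5599.5 ± 113, again without overlap. Next came Mt-cyb (3979 ± 108), Mt-co3 (3930.4 ± 226), Bgn (3929 ± 80.9), Fn1 (3866 ± 174) and Ccn2 (3696 ± 19.4), and each of these overlapped with its neighbour in the order. The 2 rows described as Col1a2, summed, would stand between Mt-co1 and Thbs1. Eef1a1 was the tenth named gene at 3393 ± 147, below Ccn2 in every library. Among the 20 highest named genes, 13 of 19 neighbouring pairs did not overlap and 6 did. A 141 bp row of the miRNA class lies inside Col3a1 and was listed at 5597 ± 399.9 FPKM, but it held only 0.0811% of the counts against 1.04% for Col3a1. Reads of the host gene and of this row cannot be told apart, and it is left out of the order.

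The marker genes proposed for these cells were all detected, over a wide range of levels. They were chosen with earlier results of these data known, so their detection is no check of the cell type. Col1a1, Fn1, Sparc and Col11a1 were among the most abundant transcripts. Col11a1 (chromosome 2, 216863428 to 217056523, forward strand) stood at 1417, 1449.5 and 1414 FPKM. Acan, encoding aggrecan (chromosome 1, 140762758 to 140824441, forward strand), stood at 80.0, 92.3 and 85.4 FPKM (85.9 ± 6.18), rank 715 by FPKM. Pax1, a transcription factor that patterns the sclerotome and the disc (chromosome 3, 141577504 to 141589849, forward strand), stood at 174, 172 and 169 FPKM (172 ± 2.33), rank 323. The Acan values spread more widely over the libraries than those of Pax1.

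The nucleus pulposus label was checked against lists of markers of disc cells and of other cell types. Of 22 matched nucleus pulposus and notochord markers, 12 were detected (54.5%), close to the 47.9% of all protein-coding genes. Summed FPKM of the list was 3029 to 3367, most of it Mgp. Mgp, an inhibitor of calcification, led with 2327, 1966 and 2302 FPKM. Ca9, a carbonic anhydrase induced in low oxygen, followed with 313 ± 6.36, Cav1 (caveolin) with 232 ± 4.39 and Basp1 with 194 ± 9.20. Foxf1, a transcription factor used as a disc marker, was at 18.5 ± 0.890, and Cd24, a surface marker of young nucleus pulposus cells, at 5.41 ± 0.598.

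Several members of that list that are linked to the notochord were at or near 0, whereas Krt8 was not. The list is a joint one, and this subset was named after its values were seen. Other members of the list were detected, such as Basp1 and Cd24 above and Ncdn at 16.4 ± 0.651 FPKM. Tbxt, Noto and Shh had no count in any control library, which allows at most 0.0681 CPM in each. Foxa2, a notochord and floor plate factor, was at 0.340 ± 0.106 FPKM, and Cdh2 (N-cadherin) at 0.101 ± 0.0441. Among the keratins of notochordal cells, Krt8 stood at 37.5, 37.3 and 38.3 FPKM, but its usual partner Krt18 at 0.986, 1.17 and 1.19 and Krt19 at 0.702, 0.330 and 0.698. The ratio of Krt8 to Krt18 within a library was 38.0, 31.8 and 32.0. Tek, which encodes the receptor TIE2 of nucleus pulposus progenitors, was at 0.0329, 0.0684 and 0.187 FPKM from 8, 16 and 39 counts. Ca12, Ca3 and Hbb stood at 0.0197, 1.75 and 0.0799 FPKM.

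Chondrocyte genes were present at mixed levels. Of 26 listed, 13 were detected (50%, against 47.9% of all protein-coding genes), and Cnmd, Col9a3, Matn1, Snorc and Ucma had no count. The defining collagen Col2a1 stood at 7.99, 6.66 and 6.84 FPKM. Within a library Col1a1 was 1721, 1809 and 1738 times as high as Col2a1, and Acan 10.0, 13.9 and 12.5 times as high. Sox9, the factor that directs cartilage matrix genes, was at 2.73 ± 0.158 FPKM, and its partners Sox5 and Sox6 were at 2.09 ± 0.189 and 3.06 ± 0.372. Fmod (fibromodulin, 148 ± 6.74), Hapln1 (the link protein that ties aggrecan to hyaluronan, 17.5 ± 2.11) and Comp (4.54 ± 0.360) were detected as well. Summed FPKM of the list was 1696 to 1738, most of it Col11a1.

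Fibroblast and annulus or tendon markers were detected more completely. Of 15 fibroblast markers 14 were detected, and these genes took 12.04% ± 0.804 of the counts, led by Col1a1, Col1a2 and Col3a1. The exception was Dpt, at 0.795 ± 0.213 FPKM. Vim (vimentin, 1791 ± 29.5), S100a4 (639.9 ± 58.1) and Thy1 (322 ± 9.53) were abundant, whereas Pdgfra stood at 3.70 ± 0.308 and Postn at 3.68 ± 0.146. Of 15 annulus and tendon markers 12 were detected. Col5a1 (616 ± 22.6), Thbs2 (599 ± 0.679) and Col12a1 (312 ± 15.5) led, and the tendon factor Scx was at 52.3, 46.8 and 48.3. Tnmd, a marker of mature tendon, had no count.

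Markers of contractile mesenchymal cells were also high in part. Tagln (transgelin) stood at 1899, 1956 and 1844 FPKM and Acta2 (smooth muscle actin) at 1076, 1136 and 1053. The receptor Pdgfrb was at 76.3 ± 3.03 FPKM, 20.7 ± 1.495 times the level of Pdgfra. In all, 13 of 15 members of this list were detected, among them Smtn (52.1 ± 2.90), Lmod1 (25.4 ± 0.545), Actg2 (10.7 ± 0.917) and Cnn1 (8.57 ± 1.10). The remaining members were Myh11 at 0.612 ± 0.0516 and Des at 0.776 ± 0.364. Of 12 bone markers, 3 were. Spp1 (osteopontin) stood at 368, 331 and 409.7 FPKM, Runx2 at 4.89 ± 0.193 and Phex at 3.56 ± 0.329, while Sost, Mepe and Dlx5 had no count.

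Markers of blood, vessel, fat, nerve and muscle were at or near 0 with few exceptions. Of all 21940 protein-coding genes listed, 7452 (34.0%) had no count. A tally of markers without a count that lies near or below that share therefore says little by itself. Of 16 macrophage and leukocyte markers, 9 had no count, including Adgre1, Aif1, C1qa, C1qb and Cd3e, and Ptprc (CD45) was at 0.0110 FPKM; Cd14 alone was detected, at 17.3, 17.3 and 23.0. Of 11 endothelial markers, Cldn5 and Robo4 had no count, and Cdh5, Kdr and Vwf were at 0.00636, 0.00434 and 0.0131 FPKM. Egfl7 (18.4 ± 1.96), Esam (4.62 ± 0.396) and Erg (3.82 ± 0.479) were detected. Of 10 adipocyte markers 8 had no count, Adipoq, Fabp4 and Lpl among them, and Pparg stood at 1.56 ± 0.181. Of 12 neuron and glia markers 5 had no count, and S100b was at 25.1, 27.2 and 25.1 and Tubb3 at 2.55 ± 0.236. No erythroid marker was detected: the summed FPKM was 0 to 1.007, and Hba1 was counted only in library 3 (17 counts). Acta1 (6.94 ± 0.735) and Tnnt3 (1.55 ± 0.178) were detected among 10 skeletal muscle markers. Of 10 epithelial markers 3 were detected, namely Cldn4, Cdh1 and Epcam at 2.33, 2.21 and 1.66 FPKM. Krt14 was counted mainly in library 3 (8, 6 and 233 counts) and Krt5 only there (40 counts). The labels describe no sort, and the part of any minor cell type in these values was not tested.

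**Figure D2:**
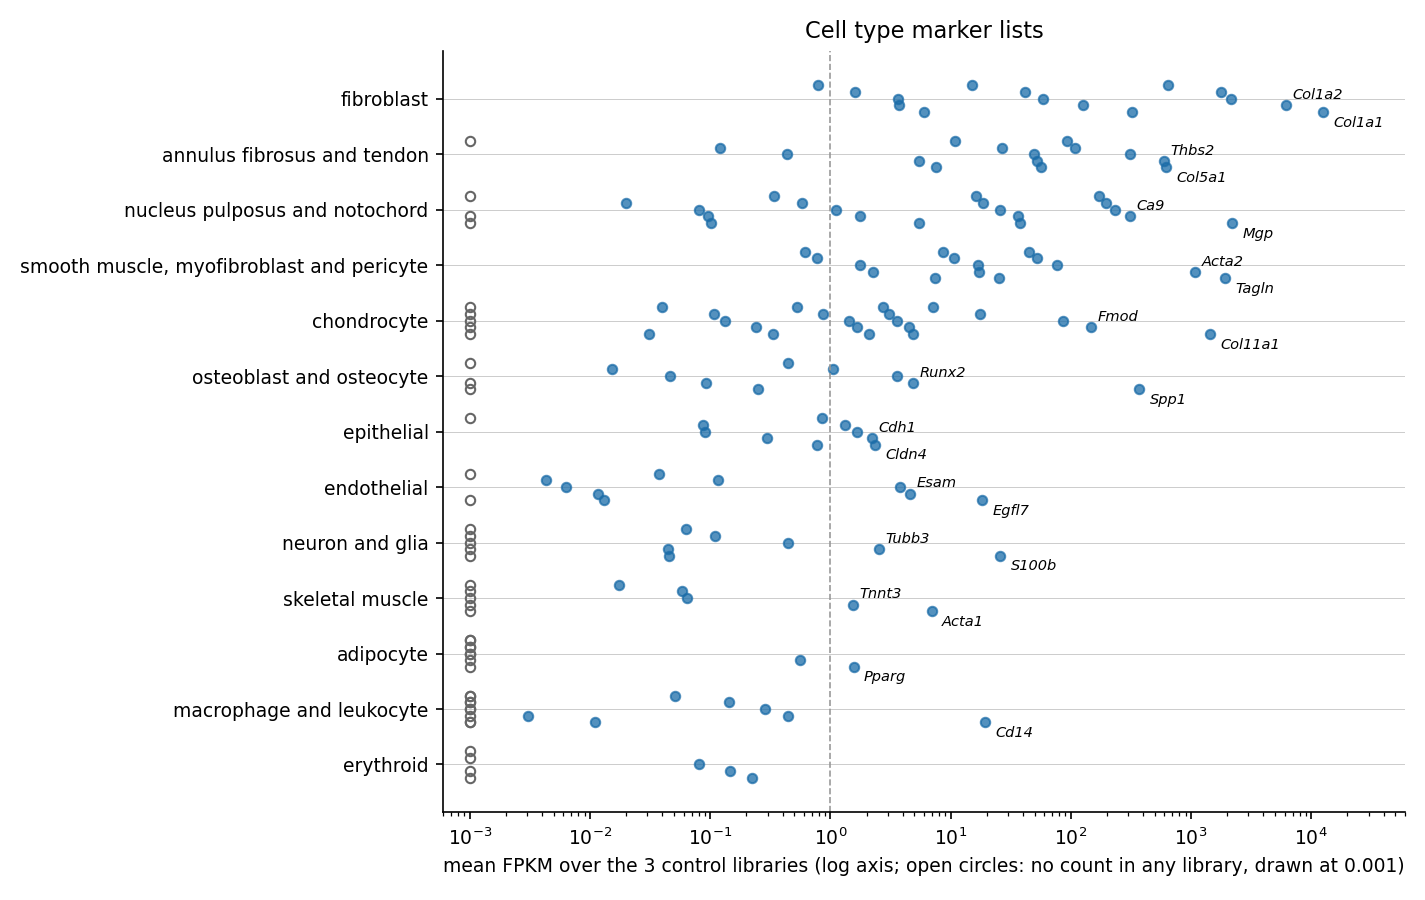
Mean FPKM (log axis) over the 3 control libraries of each matched member of 13 marker lists, 1 point per gene, with the 2 highest members of a list labelled where they reach 1 FPKM; the dashed line marks 1 FPKM and open circles mark genes with no count. Above 100 FPKM lie 7 of 15 fibroblast, 4 of 15 annulus and tendon, 2 of 15 smooth muscle, 5 of 22 nucleus pulposus and 2 of 26 chondrocyte markers, whereas no member of the endothelial, leukocyte, adipocyte, neural, muscle, epithelial or erythroid lists exceeds 25.8 FPKM.

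Collagens took 15.3% ± 0.813 of the counts (SD, n = 3), and 25 of 43 genes were detected. Molecules of type I collagen are trimers of chains from Col1a1 and Col1a2. The 2 rows described as Col1a2 summed to 6582, 6213 and 5857 FPKM, and Col1a1 was 2.09, 1.94 and 2.03 times as high within a library. Col3a1 stood at 2209.7, 2083 and 2099 FPKM, so that Col1a1 was 5.89 ± 0.293 times as high. The chains that set fibril diameter were abundant, with Col5a2 at 1444, 1515 and 1489 and Col11a1 slightly below it in every library, though their ranges overlap, and Col5a1 lower at 616 ± 22.6. Col11a2, which in cartilage joins Col11a1, stood at 0.531 ± 0.0665. Of the beaded filament collagens, Col6a1 was at 949 ± 28.8, Col6a2 at 672 ± 16.5 and Col6a3 at 125 ± 5.14. Basement membrane chains Col4a2 (197 ± 0.425) and Col4a1 (194 ± 3.26), and Col8a1 (324 ± 7.58) and Col18a1 (163 ± 5.45), also exceeded 100 FPKM. Collagens 6a5, 6a6, 9a3, 13a1, 22a1, 25a1, 26a1 and 28a1 had no count.

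**Figure D3:**
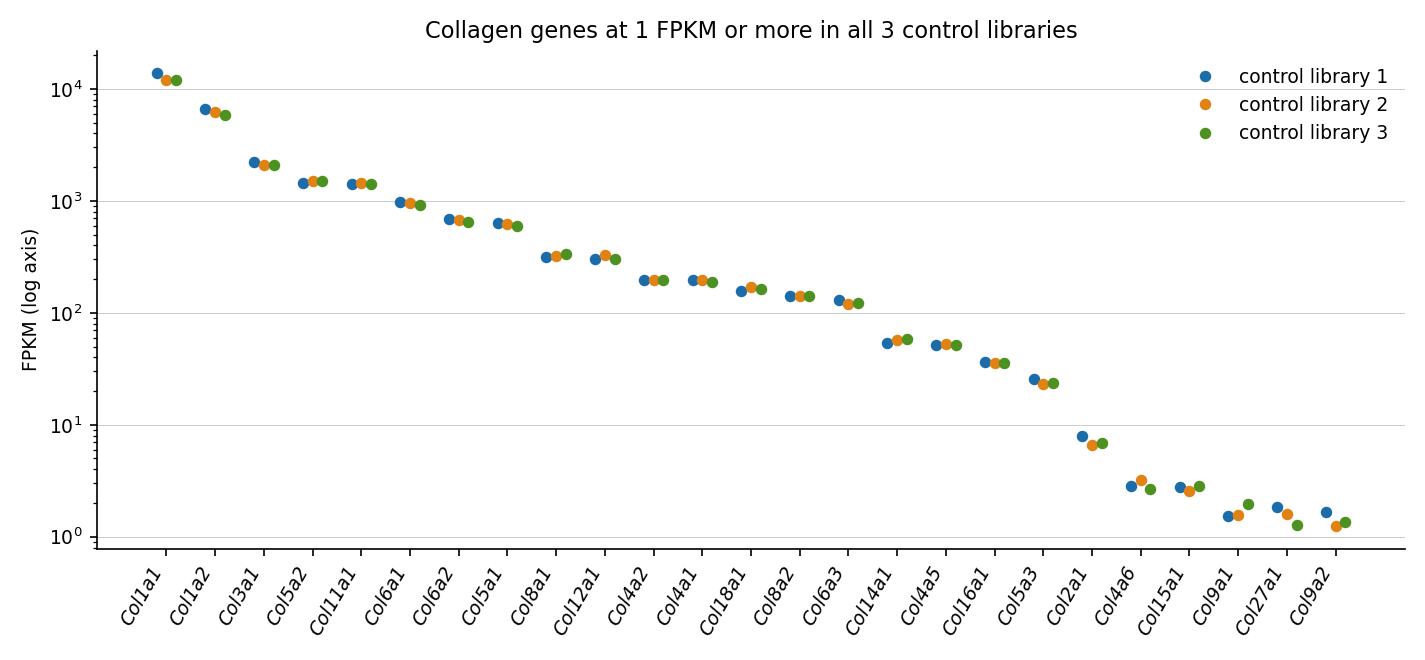
FPKM (log axis) in each control library of the 25 collagen genes detected in all 3, ordered by mean. Levels span from 13757 FPKM for Col1a1 in library 1 to 1.25 for Col9a2 in library 2, and the 3 points of a gene lie close together against that range.

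The enzymes and chaperones that mature collagen were expressed broadly, 26 of 28 detected with a median of 107 FPKM. Serpinh1, the collagen chaperone HSP47, stood at 1979, 2036 and 1957 FPKM. P4hb, the shared subunit of prolyl hydroxylase, was at 881 ± 11.1, and Plod2, a lysyl hydroxylase of telopeptides, at 718 ± 22.7. Lox, which starts the crosslinks, was at 608 ± 28.1, ahead of Loxl2 (159.7 ± 4.28). Chaperones of the endoplasmic reticulum were detected throughout (24 of 24), led after P4hb by Calr (846 ± 29.3) and Hspa5 (560 ± 15.9).

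Among 33 proteoglycan and link protein genes 22 were detected. Bgn exceeded all the others, and the next were Prelp (339 ± 15.7) and Ogn (2 rows summed, 299 ± 18.3). Acan ranked below Fmod, Dcn (109 ± 7.14) and the cell surface proteoglycans Sdc2 (249 ± 9.07) and Gpc1 (199 ± 4.71). The other large aggregating proteoglycan, Vcan, was at 3.07, 4.06 and 4.01 FPKM, or 0.0384, 0.0440 and 0.0470 times Acan. The brain members Ncan, Bcan and Hapln2, and Kera, Nyx and Spock1, had no count.

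Adhesive and matricellular glycoproteins took 10.6% ± 0.0961 of the counts, and 27 of 35 were detected. After Sparc, Thbs1, Fn1, Ccn2 and Mgp came Ltbp2 (744 ± 14.9) and Igfbp7 (742 ± 20.2). Ccn1 was at 616 ± 16.9 and Ccn5 at 458 ± 18.0, and all of Ccn1 to Ccn5 were detected. Thbs2 stood at 599.7, 598 and 599 FPKM, nearly the same in all 3 libraries. Vtn, Ccn6 and Matn1 had no count, and Tgfbi stood at 0.208 ± 0.0855 FPKM. Elastic fibre genes were led by Efemp2 (229.9 ± 5.64), Eln (156, 136 and 117) and Fbn1 (127 ± 3.24); elastin was highest in library 1 and lowest in library 3. Of basement membrane genes 14 of 18 were detected, with Nid1 (186 ± 0.909) the highest after the type IV collagens.

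Short stretches of promoter are shown for some of the most abundant genes, of this and other groups, because sequence just before the start site carries the core promoter and nearby factor sites. Windows of 250 bases before each annotated start were taken from RefSeq (build GRCr8, 33469 starts), and genes were matched by symbol. The letters TATAAA, the usual core of a TATA box, were searched on both strands between 40 and 15 bases before the start. Of the 100 highest nuclear rows by FPKM, only 63 genes had a start there, and Col1a1 and Fn1 had none. On the strand of the gene the letters occur at 5 of the 68 starts of these 63 genes (7.35%). The share was 0.703% of 8824 starts of detected genes and 1.37% of all starts. On the other strand the shares were 0%, 0.295% and 0.654%. The matching genes were Ccn1, Ccn2, Calr, S100a4 and Rplp0. Below, 4 of them are printed from 5′ to 3′ on the strand of the gene, with TATAAA in capitals, and the letters begin 31, 34, 37 and 31 bases before the start.
Ccn2 (chr1:22624618-22624667, minus strand): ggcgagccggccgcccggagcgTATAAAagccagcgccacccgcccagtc
Ccn1 (chr2:237225696-237225745, minus strand): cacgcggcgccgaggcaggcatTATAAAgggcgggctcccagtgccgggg
Calr (chr19:40213308-40213357, plus strand): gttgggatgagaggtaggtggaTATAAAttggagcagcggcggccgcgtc
S100a4 (chr2:178388476-178388525, plus strand): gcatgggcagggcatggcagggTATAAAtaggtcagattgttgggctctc

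The letters GGAATG, the core of the element that TEAD factors are known to bind, were searched on both strands over the whole 250 bases. They occur at 37.5% of 24 starts of the adhesive and matricellular list and at 32.4% of 34 starts of the actin and contractile list, against 16.2% of 37 collagen starts, 9.94% of starts of detected genes and 12.1% of all starts. Such a match is a description of the letters and not a site. Starts were found for 24 of the 35 genes of the adhesive and matricellular list, and for Fn1 none was. Windows of 4 abundant genes are shown because these genes are the most abundant of the matches in the first list. Capitals mark GGAATG or its complement CATTCC, and the Ccn2 window holds 2 of the 3 copies found.
Ccn2 (chr1:22624688-22624737, minus strand): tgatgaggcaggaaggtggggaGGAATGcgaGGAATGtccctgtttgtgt
Ccn1 (chr2:237225775-237225824, minus strand): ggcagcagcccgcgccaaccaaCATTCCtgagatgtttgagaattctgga
Thbs1 (chr3:125510181-125510230, plus strand): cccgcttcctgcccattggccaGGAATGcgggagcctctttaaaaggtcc
Sparc (chr10:40038822-40038871, minus strand): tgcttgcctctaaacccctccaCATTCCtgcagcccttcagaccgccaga

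Of 32 matrix protease genes 22 were detected. Cathepsins and Htra1 led the list, with Ctsb at 462 ± 17.9 FPKM, Htra1 at 383 ± 11.2 and Ctsl at 244 ± 13.2. Of the metalloproteases, the membrane enzyme Mmp14 was at 166, 151 and 161 and Mmp2, the gelatinase it activates, at 16.7, 14.2 and 14.1. The aggrecanase Adamts5 was at 21.4 ± 0.347, whereas Adamts4 was at 0.942 ± 0.0850, Mmp3 at 1.895 ± 0.0541 and the collagenase Mmp13 at 0.485, 0.464 and 1.17. Mmp1, Mmp7, Mmp8 and Mmp12 had no count. Of 12 protease inhibitor genes 10 were detected. Timp2, an inhibitor of metalloproteases, was at 819, 761 and 819, Cst3 at 289.9 ± 14.9 and Timp1 at 118 ± 5.87. Timp3 was lower at 35.9 ± 2.47 and Timp4 had 0, 9 and 12 counts.

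Cells bind this matrix through integrins, of which 10 of 25 were detected. Itgb1, the common β1 chain, was at 713, 738 and 735 FPKM and Itgb5 at 310.5 ± 6.95. Collagen-binding Itga1 (136 ± 7.74) and Itga11 (98.2 ± 2.39) were expressed, but Itga10, the collagen receptor of chondrocytes, was at 0.335, 0.201 and 0.324. The fibronectin receptor chains Itgav and Itga5 stood at 128 ± 0.725 and 68.5 ± 4.01. Itga9, Itgal and Itgb7 had no count. For contacts between cells, Gja1 (connexin 43) was at 82.1 ± 2.69, Cdh13 at 59.1 ± 3.03 and Cdh11, a cadherin of mesenchyme, at 46.1 ± 2.37, while Cdh4 had no count.

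Actin and contractile genes took 3.06% ± 0.0431 of the counts, and 34 of 35 were detected. Actb (2591, 2679.7 and 2493 FPKM), Tagln and Actg1 (1441 ± 66.1, with a like row elsewhere) led, followed by the actin-binding Tmsb4x (1108 ± 93.1). Cardiac actin Actc1 had no count. Vim was the main intermediate filament gene, and Tubb5 (337 ± 12.4) and Tuba1b (300.5 ± 20.3) the main tubulins. The galectin Lgals1 (1641 ± 71.5) and the calcium-binding S100a11 (919 ± 46.8) and S100a6 (769.7 ± 72.6) led their list, in which S100a9 was without counts.

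Transcription factors together took a small share. The 738 genes that the file annotates with DNA-binding transcription factor activity held 1.80% ± 0.00651 of the counts, and 402 of them were detected. The highest, chosen after their values were seen, were Atf5 (509, 459 and 470.4 FPKM) and Atf4 (245, 249.7 and 251), both activators of stress responses, and Pax1 was the third. Among the 50 skeletal and disc factors listed, 31 were detected. After Pax1 came Prrx2 (55.0 ± 1.34), Scx, Barx1 (43.6 ± 0.582) and Prrx1 (41.5 ± 2.802). Pax9, the close relative of Pax1, was at 11.9 ± 1.31, so that Pax1 was 14.6 ± 1.57 times as high. Pax1 was also 62.4, 67.4 and 59.3 times as high as Sox9 in libraries 1, 2 and 3. Nkx3-2, which acts with Pax1 in the sclerotome, was at 14.3 ± 1.18.

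Hox genes record the position of cells along the body axis, with low numbers anterior and high numbers posterior. Of 34 matched Hox genes 19 were detected. Hoxc10 (34.3, 31.5 and 33.2 FPKM), Hoxc8 (27.0, 29.1 and 29.5) and Hoxc6 (20.5, 18.8 and 19.4) were the highest, and Hoxc10 lay above Hoxc8 in every library. All 12 matched genes of paralogue groups 6 to 10 were detected, against 6 of 13 in groups 1 to 5 and 1 of 9 in groups 11 to 13. The detected member of that last band was Hoxa11 (6.32 ± 1.05), the sum of 2 rows, while Hoxc11 missed 1 FPKM in library 2 (1.21, 0.991 and 1.51). The C cluster held the most with a summed FPKM of 101.1, then B with 64.7, D with 14.6 and A with 10.8. Symbols of 5 Hoxa genes were not matched, so the A cluster sum is partial. Hoxb1, Hoxb13, Hoxc12, Hoxc13, Hoxd1, Hoxd11 and Hoxd12 had no count.

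**Figure D4:**
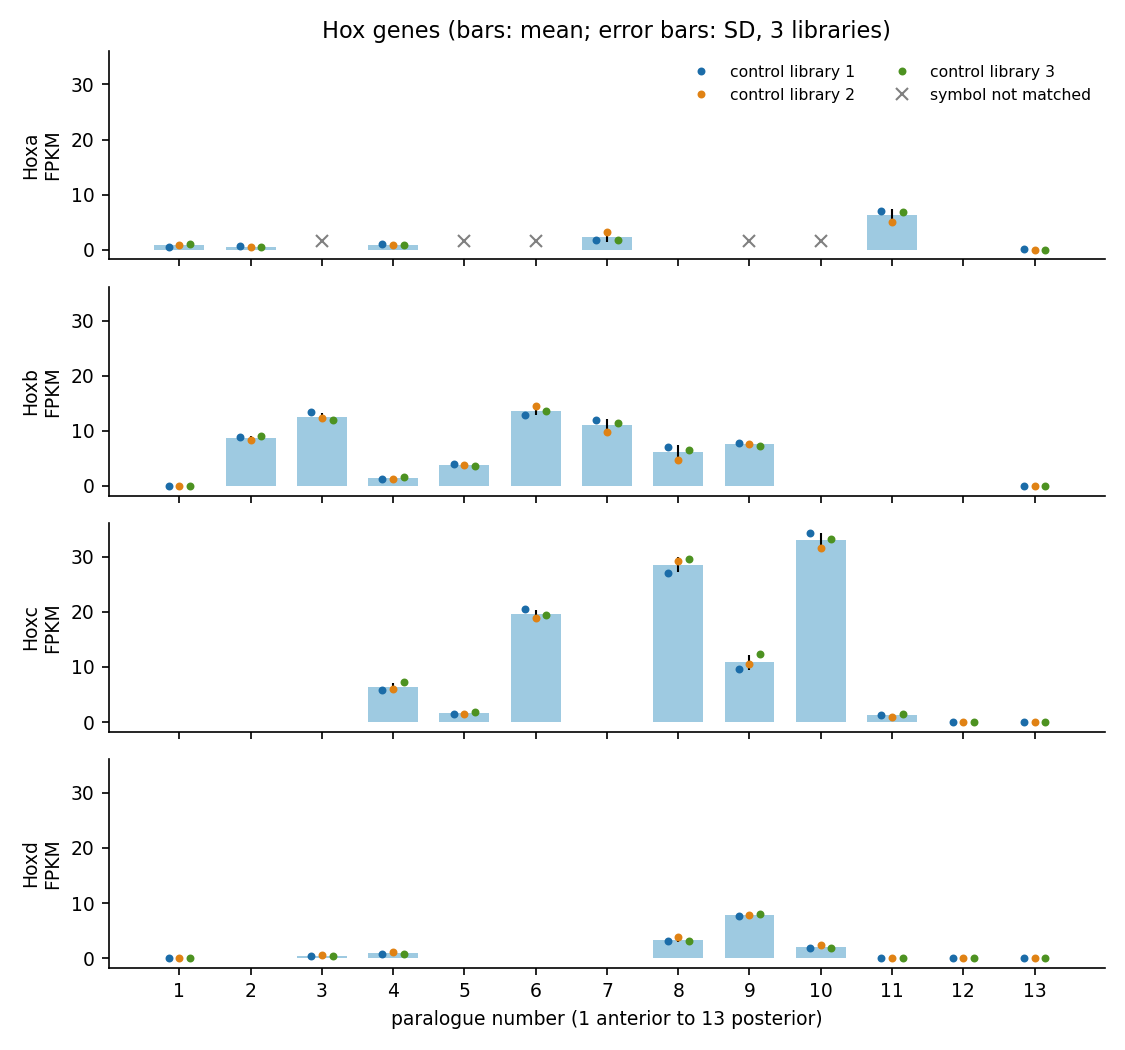
FPKM of Hox genes by paralogue number, 1 panel per cluster; bars give the mean and error bars the SD of 3 control libraries, points the libraries, and crosses the genes whose symbol was not matched. The highest bars are Hoxc6, Hoxc8 and Hoxc10, and no bar in groups 12 and 13 exceeds 0.0390 FPKM.

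Of the TGF-β and BMP families, which guide skeletal growth and matrix synthesis, 40 of 50 members of the list were detected. Of the ligands, Tgfb3 stood at 252, 274 and 245 FPKM, Bmp4 at 195, 200.3 and 210.4, Inhba (activin A) at 112 ± 5.59, Tgfb2 at 79.7 ± 5.83 and Tgfb1 at 73.9 ± 2.14. Tgfb3 was 3.48 ± 0.299 times Tgfb1. The secreted antagonist Grem1 stood at 176, 196 and 193, below Bmp4 in every library although their ranges overlap, and Fstl1 led the list at 836 ± 18.9. Receptors were lower: Tgfbr2 at 33.3 ± 1.08, Bmpr2 at 24.3 ± 0.812 and Bmpr1a at 23.6 ± 1.37. The target gene Id3 was at 113 ± 12.5. Gdf5 and Bmp5 had no count.

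Among growth factor genes, the binding protein Igfbp7, the ligand Gas6 (225 ± 4.63) and its receptor Axl (104 ± 4.18) were highest. The ligands Igf1 and Igf2 were at 0.0564 and 0.156 FPKM, although the receptor Igf1r was at 30.0 ± 0.236. Of 59 Wnt, Notch and Hedgehog genes 26 were detected and 11 had no count. Ctnnb1 (β-catenin, 108 ± 1.99), Fzd1 (59.7 ± 2.06) and Fzd2 (46.1 ± 0.828) led, and Wnt5a was the highest Wnt ligand at 15.1 ± 1.03. The Hedgehog target genes were low, with Ptch1 at 2.10 ± 0.0784 and Gli1 at 0.0257 ± 0.0223.

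Of 51 cytokine, chemokine and receptor genes 28 were detected. The inflammatory cytokines Il1b, Tnf and Il6 had few counts. Il1b had counts only in library 3 (0, 0 and 4 counts), Tnf had 7, 0 and 4 and Il6 13, 49 and 8. The chemokines Ccl2 (4.52, 5.60 and 6.78 FPKM) and Cxcl1 (4.43 ± 0.467) and the enzyme Ptgs2 (10.9 ± 0.630) were detected. Il18, Csf2, Ccl3, Ccl5 and Ccl20 had no count. The list was led by Mif (157 ± 11.9), the adhesion molecule Icam1 (127 ± 1.39) and the receptor Tnfrsf12a (127 ± 7.29), and Tnfrsf11b, the decoy receptor osteoprotegerin, was at 115 ± 5.65.

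The clock genes, of which the series targets Bmal1 in its other group, were of moderate level in these controls. Of 23 listed, 17 were detected, together 0.0637% of the counts, and Hlf had no count. Csnk1d, a kinase of the period proteins, led with 41.0 ± 0.597 FPKM, followed by the repressors Bhlhe40 (27.7 ± 1.99) and Nr1d1 (19.1 ± 1.16). Arntl (Bmal1) stood at 8.38, 9.19 and 9.90 and its partner Clock at 2.95 ± 0.209. Cry2 exceeded Cry1 (13.3 ± 0.0874 against 3.75 ± 0.323), and Per1 (5.24 ± 0.507) lay above Per2 (4.10 ± 0.176) in every library. No source used here gives the time of day of harvest. The letters CACGTG, the E-box that CLOCK and BMAL1 bind, which read the same on both strands, occur in 26.3% of 19 clock gene starts, against 8.48% of starts of detected genes and 5.59% of all starts. They also occur in 15.8% of 38 starts of the hypoxia and glycolysis list. The 3 windows below show them in capitals. Nr1d1 has 2 annotated starts, and the letters occur before 1 of them.
Nr1d1 (chr10:84229618-84229667, minus strand): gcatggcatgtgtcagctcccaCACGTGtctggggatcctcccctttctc
Bhlhe40 (chr4:143174208-143174257, plus strand): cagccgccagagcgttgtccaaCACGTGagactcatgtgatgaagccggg
Ciart (chr2:186112254-186112303, minus strand): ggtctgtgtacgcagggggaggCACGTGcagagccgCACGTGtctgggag

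Genes of glycolysis and the hypoxia response were nearly all detected (36 of 39). Gapdh, found through its description in 2 rows, summed to 981 ± 62.9 FPKM. Pkm (586, 582 and 591), Eno1 (492, 491 and 492), Aldoa (481 ± 2.43) and Ldha (464 ± 12.9) followed with little spread. The lactate-forming Ldha was 45.4 ± 3.09 times Ldhb, and the lactate exporter Slc16a3 3.97 ± 0.257 times Slc16a1. Hif1a, the oxygen-regulated factor, was at 25.5 ± 0.409 and its relative Epas1 at 16.1 ± 0.851. Of hypoxia target genes, Ca9 was high and Vegfa was at 26.9 ± 1.17, but Egln3 had 0, 19 and 4 counts and Ca12 8, 0 and 0.

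The taurine transporter Slc6a6 (82.0 ± 1.86) and aldose reductase Akr1b1 (59.1 ± 2.24), known targets of the osmotic factor Nfat5 (11.5 ± 0.587), were detected. Chloride channel gene Clic4 (255 ± 7.75) led the osmoadaptation and transport list, and its relative Clic1 was at 133 ± 2.34. Water channels were low: Aqp1 was at 2.93 ± 0.181 and Aqp3 at 0.0968 ± 0.130, while Aqp5 and Aqp9 had no count. All 32 antioxidant and iron genes were detected. Extracellular superoxide dismutase Sod3 (666, 668 and 683) was 40.9 ± 2.03 times the mitochondrial Sod2, and Fth1 (ferritin heavy chain, 608 ± 23.9) and Prdx4 (197 ± 5.43) came next.

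Housekeeping families differed in weight. The 13 protein-coding genes of mitochondrial DNA were all detected and took 2.54%, 2.78% and 2.76% of the counts (2.69% ± 0.136), while mitochondrial rRNA took 0.0476% ± 0.0137. The 93 cytosolic ribosomal protein rows took 2.10% ± 0.0695, with 88 detected at a median of 253 FPKM, led by Rplp0 (1449 ± 28.7) and Rps2 (1245 ± 57.3). Many of these genes have processed copies, so single rows are uncertain. Mitochondrial ribosomal proteins (74 of 76 detected, 0.125%), proteasome subunits (36 of 39, 0.235%) and hnRNPs (19 of 19, 0.285%) were detected nearly in full but took less. Translation factors were led by Eef1a1, Tpt1 (1273 ± 45.3) and Eef2 (1004 ± 37.4), and heat shock genes by Hsp90ab1 (392 ± 4.63), Hspb1 (268 ± 12.03) and Hspa8 (195 ± 16.2).

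Families of restricted expression were mostly not detected. Of 1100 genes with a symbol of the olfactory receptor form (Olr and a number), 1088 had no count. Only Olr1 was detected, at 2.29 ± 0.255 FPKM. That symbol belongs to the oxidized low density lipoprotein receptor and not to an olfactory receptor. The next highest, Olr93, was at 0.0586 FPKM. None of 150 vomeronasal receptors was detected. Of 1952 genes annotated with G protein-coupled receptor activity, 48 were detected, and the highest (chosen after their values were seen) were Adgra2 (76.1 ± 1.07), Fzd1 and Cmklr1 (58.6 ± 4.89). Detection reached 11 of 90 potassium channel genes and 3 of 46 keratins, against 47.9% of all protein-coding genes. Solute carriers, with 153 of 332 detected (46.1%), were close to that share.

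All 30 matched cell cycle genes were detected at a median of 7.47 FPKM. The cyclin Ccnd1 (153, 161 and 163) and its partner Cdk4 (80.9 ± 1.302) led, and the proliferation markers Top2a and Mki67 were at 8.97 ± 0.591 and 6.14 ± 0.3999. Of 23 p53 and senescence genes 21 were detected. The cell cycle inhibitor Cdkn1a stood at 128, 122 and 122.9 and Glb1, the gene of lysosomal β-galactosidase, at 107 ± 0.721. Cdkn2a stood at 14.96, 19.1 and 16.4. How many cells were cycling was not measured.

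The spread over libraries was small for most genes. Over 12140 genes with a mean of at least 1 CPM (scaled by TMM, which sets libraries to a common level through the bulk of genes), the median coefficient of variation (CV, the SD as a percent of the mean) was 6.81%, where counting error alone gives a median of 3.29%. The biological coefficient of variation that edgeR fits over these genes was 17.0%. The median CV fell with level, from 14.4% in 3991 genes between 1 and 10 CPM to 3.18% in 1396 genes between 100 and 1000 CPM, and was 3.08% in the 83 genes above that. Of 8149 genes with a mean of at least 10 CPM, 6769 (83.1%) stayed within 1.2-fold over the 3 libraries and 87 (1.07%) differed 2-fold or more. Col1a1 had a CV of 9.41%, against 3.72% for Fn1, 2.56% for Sparc, 1.89% for Col11a1 and 0.928% for Ccn2. Acan was at 6.72% and Pax1 at 2.61%.

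**Figure D5:**
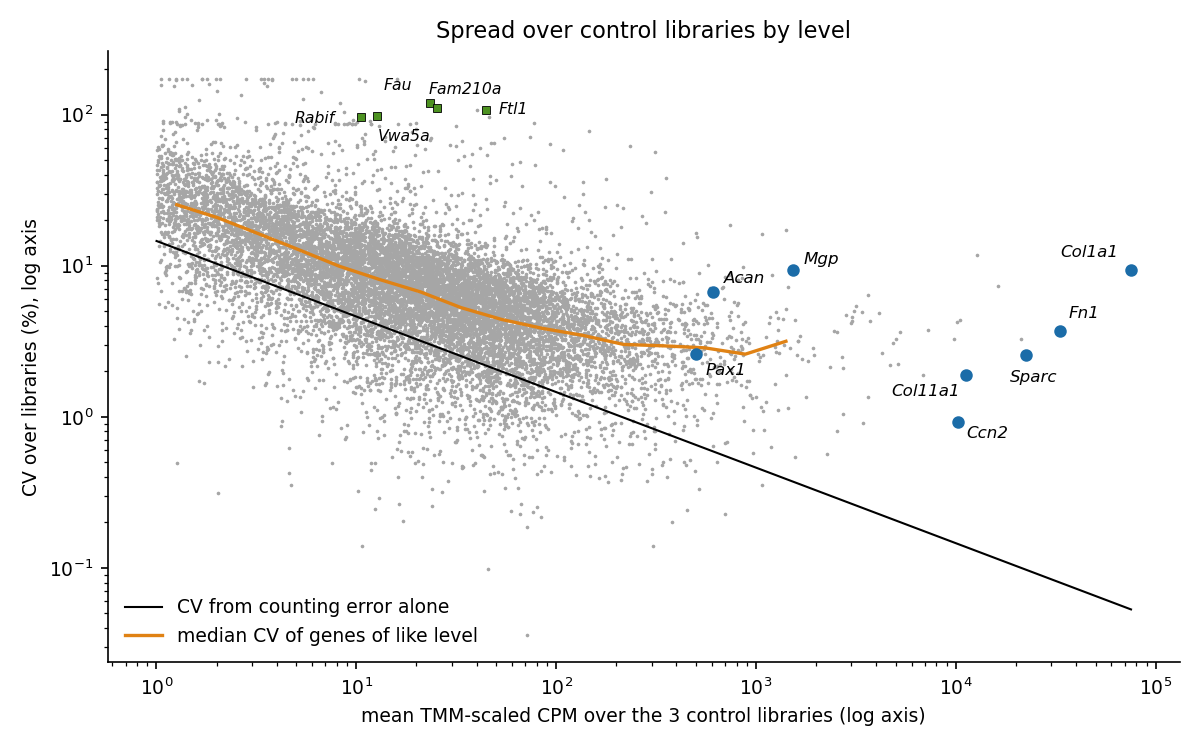
CV over the 3 control libraries (percent, log axis) against mean TMM-scaled CPM (log axis), 1 grey point per gene at 1 CPM or more; the black line is the CV from counting error alone and the orange line the median CV of genes of like level. Blue points mark named matrix and marker genes, among which Col1a1 (9.41%) and Mgp (9.40%) lie highest, and green squares the 5 most variable named protein-coding genes at 10 CPM or more.

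Several of the most variable rows have another row with a like description in the file. The 5 named protein-coding genes with the largest CV at 10 CPM or more were Fau (120%, 2614, 266 and 406 counts), Fam210a (110%, 2701, 430 and 439), Ftl1 (107%, 564, 4961 and 1012), Vwa5a (98.5%, 1180, 0 and 586) and Rabif (96.1%, 447, 1055 and 44). The Fau row spans only 402 bp and the Ftl1 row 908 bp, and whether these rows are processed copies was not tested. Of these 5, only Vwa5a was paired here with a like row. Vwa5a had 0 counts in library 2, where a row on chromosome 8 described as the same protein had 1653 counts against 0 in library 1 and 1168 in library 3. The sum of both rows had a CV of 21.9%. Likewise Echs1 had 604, 0 and 771 counts and a row described as a like enzyme 373, 899 and 0, with CVs of 89.4% and 104.5% (named after its values were seen). Their sum, at 977, 899 and 771, had a CV of 9.78%. In 6 of 9 such pairs, also chosen after their values were seen, the sum had a smaller CV than either row. A sum tends to have a smaller CV by averaging alone, so this count cannot decide whether reads were split. In the pairs of Map3k7, Tmco3 and Actg1 the sum had CVs of 24.2%, 21.3% and 4.71%. The less variable row of each had 8.05%, 5.76% and 3.43%. For Col1a2 the 2 rows had CVs of 11.8% and 7.29% and their sum 7.12%. Of the 87 genes that differed 2-fold or more, 46 (52.9%) carry a placeholder symbol, against 545 (6.69%) of all 8149. Levels of such rows are uncertain. Whether the counting split reads between like rows was not tested, and the sequences of the rows were not compared. The 5 genes with the smallest CV were Slc25a24, Rin2, Hus1, Anapc5 and Sgpl1, at 0.0362% to 0.186%. These values lie below the counting error of the same genes, 0.835% to 4.47%.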

How the data were processed

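For the 3 control libraries, RNA was captured with oligo-dT beads and sequenced in paired ends on a NovaSeq instrument, per the labels' protocols. Per the submitters' processing notes, HISAT2 2.0.4 and StringTie 1.3.4d were used, with cutadapt 1.9 and with DESeq2 and edgeR, in roles the notes do not state. No source used here gives the genome build, the annotation, the counting tool or the strand setting. The protocol's wording on the RNA fraction is not clear. The deposited table holds raw counts per gene and FPKM per gene, per the file headers; a gene without a count is listed at an FPKM of 0.0001 and was taken as 0. Every value column was tied to a sample (0 were not), and only the 3 control columns were used.

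Shares are percentages of a library's total count (44043803 to 49783710). No test was run, since the description covers 1 group. The CV is the SD over the mean of TMM-scaled CPM (edgeR 4.0.16 in R 4.3.3, TMM factors 0.988 to 1.013), and the biological CV is the square root of edgeR's common dispersion with an intercept only. The spread script was tested on simulated data. Intervals and floors of 3 counts cover counting error only. Lists held 976 genes, of which 950 were matched, 9 of them by description and 3 by an older symbol, and 26 were not. Rows of 1 gene were summed. Genes were named by a rule: the 6 markers, the 20 most counted and 10 highest by FPKM, the 3 highest of each list, and the 5 most and 5 least variable at 10 CPM or more; placeholder symbols were not named, and a few genes that the rule covers are not reported here. The members and the lists were chosen with earlier results of these data known. Alternatives were other size factors (DESeq2 1.42.0), other detection limits and filters, shares per length, another denominator, and each library left out.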

Additional observations from a re-analysis of the deposited data

How the results depend on the processing

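Dividing by length moved the shares, since long transcripts collect more reads. The 10 rows highest on the TPM scale, among them the miRNA row inside Col3a1, held 14.5% of it. They are not the same set as the 10 most counted genes, which held 22.3% of the counts. On the TPM scale Col1a1 held 3.03% instead of 7.52% and the collagens 6.68% instead of 15.3%. Ribosomal protein genes held 6.44% instead of 2.10% and mitochondrial protein-coding genes 6.48% instead of 2.69%. By counts not divided by length, 13 of the 20 highest named genes by FPKM stayed among the 20 highest. A limit of 10 FPKM left 5068 genes detected instead of 11134. The median CV of 6.81% became 5.07% at 10 CPM or more and 7.95% with at least 1 count in each library, and the biological CV of 17.0% became 10.8% and 13.6%. Without each library in turn, the median CV was 5.13% to 5.87%, an SD over 2 values by construction, and the biological CV 16.03% to 17.6%. Leaving out each library for the order of levels was chosen after seeing the data and kept the same 20 genes. In all, 35 alternative values stayed within 1 SD or 1.5 times of the reported value and 15 did not. No paired analysis was possible because only 1 group was described and no test was run. Depth limits what was seen of a gene to above 0.0603 to 0.0681 CPM.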

Other observations

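The labels give male animals, and genes of the Y chromosome were counted at low levels. Kdm5d had 48, 50 and 42 counts in libraries 1, 2 and 3, and its X-linked relative Kdm5c 7288, 8091 and 7548; the mean FPKM was 0.160 ± 0.00631 against 24.8 ± 1.403, or 0.647%. Eif2s3y had 72, 76 and 51 counts, at 0.589 ± 0.0922 FPKM, and Eif2s3 stood at 42.1 ± 1.28. A Y-linked row with the symbol Ddx3 had 64, 83 and 78 counts. Usp9y, Ddx3y and Sry had no count. The symbols Uty, Xist and Tsix were not matched, so no level is given for them. Of 48 rows on the Y chromosome, 9 had a count.

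Small RNA rows carried counts although the libraries were made from poly(A) RNA. Of 1563 miRNA rows listed, 388 had a count and 227 of these lie inside a protein-coding gene. Reads of the host genes cannot be told apart from theirs.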
